A study of Mus musculus with 18 samples.

Results

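The transcriptome of wild-type mouse intestinal stem cells was compared between 14 days and 2 days after tamoxifen. The members were chosen by label alone: every library of the wild-type genotype, which gave 4 libraries at 2 days and 5 at 14 days, 9 of the 18 in the series. The other 9 carry a conditional knock-out of Dlg1, a scaffold protein of cell polarity, and were used here only for values set beside the wild type. All mice were 8 to 16 weeks old and all received tamoxifen, 48 hours (called 2 days) or 14 days before the tissue was taken. The labels name the genotype of the controls as wildtype and name no Cre line, promoter or floxed allele for them. Between 5000 and 10000 cells per sample were sorted by flow cytometry, by markers not given in the sources used here. Poly(A) RNA was captured on beads, turned into cDNA with a SmartSeq kit and cut into Nextera XT libraries, with no molecular identifiers named. The values are read counts per gene.

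The 2 times were deposited as separate count tables, 1 per time. Time after tamoxifen therefore cannot be told apart from table, sequencing run, sorting day or group of mice, and "higher at 14 days" means higher in that table. The labels do not say whether replicates came from separate mice, so each p-value reflects the spread among these libraries alone, and part of that spread may be technical.

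Intestinal stem cells divide at the base of the crypts, where Wnt signals from Paneth cells and the surrounding stroma keep them in that state. Their daughters leave the niche and become absorptive enterocytes or secretory goblet, Paneth, enteroendocrine or tuft cells. Lgr5, a receptor that strengthens Wnt signalling, Olfm4 and Ascl2 mark the stem cells, while Notch signals between neighbours hold back the secretory fates.

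The libraries of the 2 tables differed in make-up before any single gene was considered. Total counts were 40.5, 19, 14.8 and 16.9 M in libraries 1 to 4 at 2 days and 14.2, 13.9, 12.6, 15.7 and 13.9 M in libraries 1 to 5 at 14 days. Genes with at least 1 count numbered 16073 to 18291 at 2 days and 20398 to 26409 at 14 days, although the mean total was lower there. After thinning every library to the same total of 12581597 counts the gap was as wide, at 14824 to 17908 against 20398 to 26048 (two-sided exact permutation p = 0.0159, the smallest possible with 4 and 5 libraries, and 0.0272 adjusted over 12 library measures). Satellite-like gene models, predicted genes that lie over repeats, took at most 0.000326% of counts at 2 days and 2.69, 1.31, 0.0705, 5.68 and 10.1% at 14 days. Nuclear protein-coding reads lay on shorter transcripts at 14 days: the length that splits them evenly was 3975 to 4115 bases at 2 days and 2925 to 3495 bases at 14 days (two-sided exact permutation p = 0.0159). Library 1 at 2 days, the deepest, and library 3 at 14 days, the shallowest, stood apart in mitochondrial share, and lists whose counts or medians rest on them are also given without both.

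**Figure D1:**
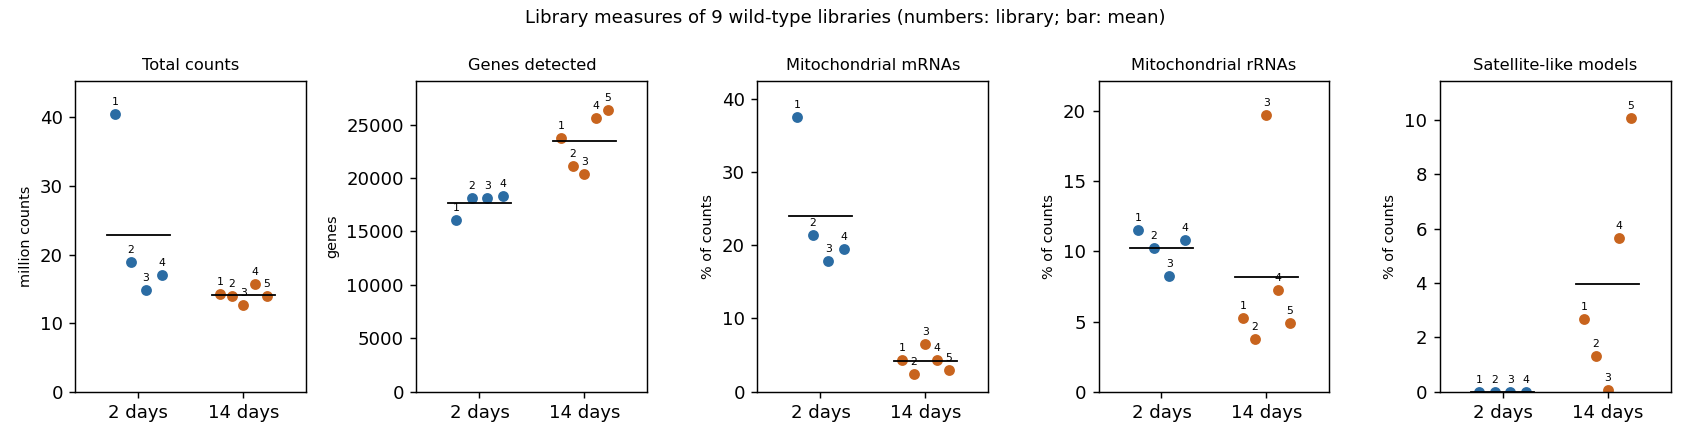
Library measures of the 9 wild-type libraries by time: total counts (M), genes with at least 1 count, and the percentage of counts in mitochondrial messenger RNA genes, mitochondrial ribosomal RNA genes and satellite-like models. Points are libraries with their number and bars are group means. The groups do not overlap in genes detected, mitochondrial messenger RNA or satellite-like share, and overlap in mitochondrial ribosomal RNA through library 3 at 14 days.

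The cells carried epithelial genes at high level in both tables. Epcam, an epithelial adhesion molecule, stood at 2327, 1070.4, 1201 and 1099 CPM (counts relative to the TMM-scaled library total) in libraries 1 to 4 at 2 days. At 14 days it stood at 1965, 1581, 1939.6, 1694 and 1571 CPM in libraries 1 to 5. The groups overlapped, and the difference missed the threshold (log2 fold change 0.30, standard error 0.26). Most markers of other cells were near the limit of counting, but not all. Of 27 immune cell markers 7 had enough reads to be tested, and the list summed to 36 to 102 CPM at 2 days and 14.5 to 32 CPM at 14 days. Adgre1 of macrophages had at most 6 counts in any library and Cd3e of T cells had at most 43, in library 1 at 2 days. Igkc, an immunoglobulin gene that was also not tested, had 60, 118, 1 and 0 counts in libraries 1 to 4 at 2 days. At 14 days it had at most 6. Itgam, an integrin of myeloid cells, was tested and called lower. It read 68, 10.9, 9.82 and 12.5 CPM at 2 days and 2.39, 3.74, 3.34, 4.25 and 5.86 CPM at 14 days, and library 1 at 2 days held most of it. The part of these markers in the results below was not tested. Stromal and endothelial markers (7 of 21 tested, 2 higher and 0 lower) summed to 7.52 to 12.6 and 12.1 to 24 CPM, with at most 4 counts of Col1a1 in any library. Haemoglobin Hba-a1 had 0 counts in all 9 libraries. Y-linked and X-inactivation genes (6 tested, 0 higher and 0 lower) varied within each time. They summed to 10825, 7209, 202 and 250 CPM at 2 days and 257, 1345, 163, 236 and 1301 CPM at 14 days. The sum joins both kinds of gene, so it cannot be read for sex, and whether the mice differed in sex was not tested.

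The shared baseline was ranked by level per length, in RPKM (the same value per kilobase of exon), over 12217 nuclear protein-coding genes. Of the 100 highest genes at each time, 54 were in both lists, and 55 when all genes were ranked. Across genes the 2 mean profiles had a Spearman correlation of 0.83, and 57.9% of genes lay within 2-fold of each other, with a median absolute log2 fold change of 0.83. These are descriptions over genes that share libraries and depth. Of the 54 shared genes, 28 showed no called difference between times, 19 were higher and 7 were lower at 14 days.

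The 20 highest genes over both times were a mixture of crypt secretory products, epithelial genes and genes not particular to epithelium, such as Rpl4, B2m, Egr1 and Fos. The defensins Defa24 and Defa30 held rank 1 and rank 3 over both times. Lgals2, a galactose-binding lectin, stood at 989, 1017, 1059 and 1184 RPKM at 2 days and 2212, 1994, 6035, 2191 and 1825 RPKM at 14 days, rank 6 and rank 3. The groups did not overlap, but the log2 fold change of 1.42 became -0.62 with the correction for transcript length given further on, and passed the test in both directions. Lypd8, a protein that keeps flagellated bacteria from the epithelium, held rank 2 and rank 7, with 3699.8, 1429.9, 1199 and 1368 RPKM at 2 days and 1202, 687, 1593, 964 and 975 RPKM at 14 days. The groups overlapped for Lypd8, and the highest value was that of library 1 at 2 days. Hsp90ab1, a constitutive chaperone, held rank 3 and rank 12, with 1546, 1647, 1403 and 1412 RPKM against 759, 849.7, 1184, 1008 and 824 RPKM, and every library at 14 days lay below every library at 2 days. That call (-0.70 ± 0.22) was lost without library 1 or library 5 at 14 days. Muc13, a cell-surface mucin, held rank 17 and rank 33 at nearly one level, 639, 642, 473 and 601 RPKM against 527, 609, 556, 553 and 595 RPKM.

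Other top genes changed place. Clca3b, a calcium-activated chloride channel regulator family member, was the highest of these genes at 2 days and ranked 89 at 14 days, with 1881, 1960.0, 1681 and 2386 RPKM against 309.6, 146, 385, 243 and 225 RPKM. Olfm4, a secreted glycoprotein of the stem cells, went from rank 4 to rank 93, and Egr1, an immediate early transcription factor, from rank 5 to rank 128. In the other direction, Spink4, a secreted protease inhibitor of goblet cells, went from rank 288 to rank 5. Fabp1, the fatty acid binding protein of enterocytes, went from 339 to 6, and Tff3, the trefoil peptide of goblet cells, from 230 to 8. Defa24, a Paneth cell defensin, was rank 7 at 2 days with 885, 794, 1616 and 113 RPKM and rank 1 at 14 days with 2496, 4793, 23656, 3954 and 2834 RPKM. Library 3 at 14 days held several times the Defa24 of any other library. Defensin genes are near-identical copies, so reads may have been split among them and single values are uncertain.

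**Figure D2:**
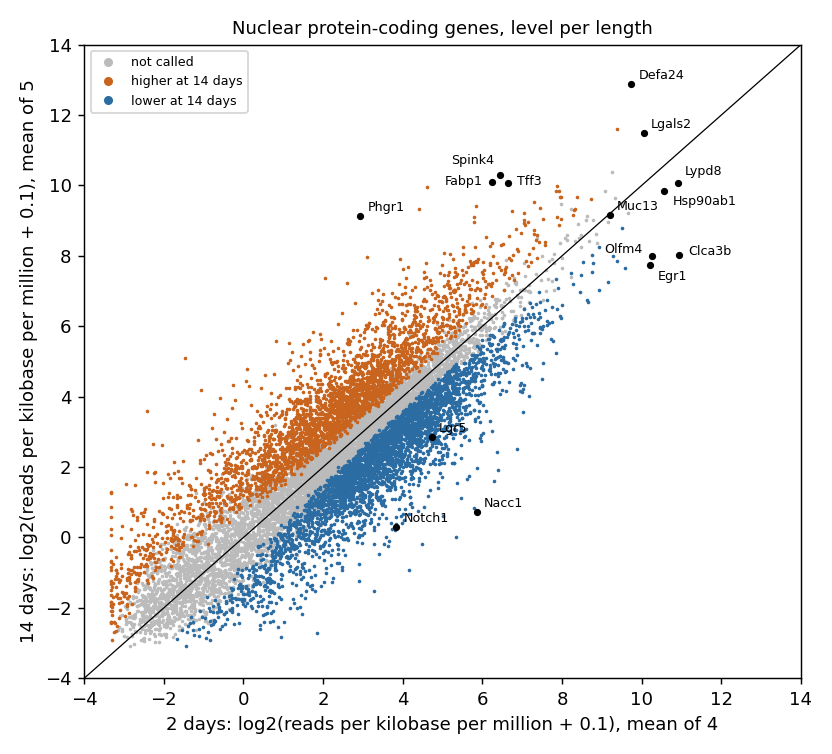
Mean level per length of each nuclear protein-coding gene at 2 days (x, mean of 4 libraries) and 14 days (y, mean of 5), both as log2(RPKM + 0.1). Orange points were called higher and blue points lower at 14 days, the line marks equal levels, and black points are named: Muc13 lies on the line, Clca3b, Olfm4 and Egr1 lie below it, and Spink4, Fabp1 and Tff3 lie above.

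About as many genes differed between the 2 tables as did not. Of 14078 genes tested in edgeR (quasi-likelihood, Benjamini-Hochberg adjustment), 7293 (51.8%) passed an adjusted p of 0.05, 3662 higher (26.0%) and 3631 lower (25.8%) at 14 days. The median over all genes tested was 0.06 on the log2 scale. Tested against a 2-fold change, 1521 genes (10.8%) were higher and 1249 (8.87%) lower. The 5 libraries at 14 days did not overlap the 4 at 2 days for 3279 genes in the higher direction (23.3%) and 3110 in the lower (22.1%). With library totals in place of TMM scaling the split was 5308 higher to 1595 lower, 76.9% higher against 50.2%, and the median over all genes moved to 0.62. Without a filter on low counts it was 5482 to 3619, 60.2% higher. Directions below are therefore relative to the TMM scale. With a length and GC correction described next, 1800 genes passed the 2-fold test in place of 2770. The number called in either direction was 6903 with library totals, 6575 with that correction, and 6432 to 8132 with single libraries left out, the lowest without library 4 at 14 days.

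The knock-out libraries showed a similar split. They form the same 2 tables, so they repeat the measurement and do not separate time from table. In 1 fit of all 18 libraries, 3904 genes (25.3%) were higher and 3883 (25.1%) lower at 14 days in the knock-out. Of the 3662 genes higher in the wild type, 3590 were also positive in the knock-out and 2834 passed there, and of the 3631 lower genes 3611 were negative and 3152 passed. Over the higher genes the median log2 fold change was 1.64 in the wild type, which chose them, and 1.36 in the knock-out. Over the lower genes it was -1.24 and -1.14. The change differed between genotypes for 0 of 15458 genes in edgeR (quasi-likelihood, Benjamini-Hochberg; smallest adjusted p = 0.289), with 921 genes at an unadjusted p under 0.05.

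The size and sign of a gene's difference moved with the length of its transcript. Over 12211 nuclear protein-coding genes with a length and GC content, the Spearman correlation of log2 fold change with transcript length was -0.45 in the wild type and -0.43 in the knock-out, given as a description across genes. With genes in 10 bins of equal size, in the bin of shortest transcripts, up to 1423 bases, the median log2 fold change was 1.39, and 61.4% were called higher and 4.25% lower. In the bin of the longest, from 6792 bases, the median was -0.76, and 6.72% were called higher and 56.1% lower. Genes called higher had a median transcript length of 2190 bases, those called lower 4487 bases, and those not called 3395.5 bases. The relation with GC content was weaker, with a Spearman correlation of 0.11. An offset fitted per library to transcript length and GC content, chosen after these values were seen, brought the median of each length bin to between -0.02 and 0.13. With it 3329 genes were higher (23.6%) and 3246 lower (23.1%). Counts of list members are to be read against 26.0% higher and 25.8% lower over all genes tested, or 23.6% and 23.1% with the offset. These shares are not matched for level. With the same protein-coding genes in 10 bins by mean level, 16.6% were called higher and 4.66% lower in the lowest bin. In the highest bin it was 21.9% and 47.3%, or 26.1% and 36.7% with the offset.

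**Figure D3:**
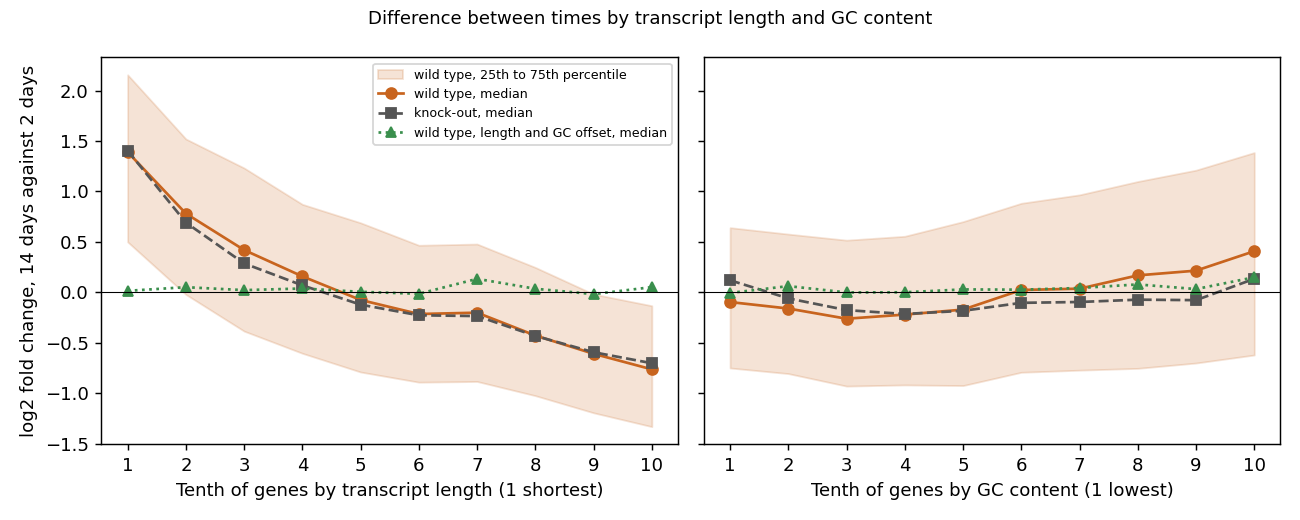
Median log2 fold change, 14 days against 2 days, in 10 bins of nuclear protein-coding genes by transcript length (left) and by GC content (right). Circles are the wild type with the 25th to 75th percentile shaded, squares the knock-out, and triangles the wild type with the length and GC offset. The wild-type median falls from 1.39 in the shortest bin to -0.76 in the longest, the knock-out runs beside it, and the offset brings it near 0.

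The 15 largest higher genes, chosen among called genes whose groups did not overlap, included products of mature epithelium, antimicrobial proteins and a heat shock gene. Phgr1 (proline, histidine and glycine rich 1; ENSMUSG00000046804, chromosome 2, 118772769 to 118778165, plus strand, GRCm38), an epithelial gene of the gut, had the largest log2 fold change. It read 5.62, 3.51, 4.03 and 3.38 CPM at 2 days and 302, 253, 494, 242 and 230.1 CPM at 14 days. The lowest library at 14 days lay far above the highest at 2 days, with a log2 fold change of 6.19 ± 0.32 (standard error; edgeR's quasi-likelihood test, Benjamini-Hochberg adjusted p = 1.79e-07). In the knock-out the log2 fold change of Phgr1 was 5.93.

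Reg3b and Reg1, secreted lectins of the regenerating family that lie near each other on chromosome 6, were both higher. Reg3b, which kills bacteria at the mucosa, read 8.63, 21.1, 40.9 and 41.1 CPM at 2 days and 631, 41.1, 2586, 123 and 2286 CPM at 14 days. Its libraries at 14 days spread widely, and library 2 at 14 days barely exceeded libraries 3 and 4 at 2 days. Reg1 read 7.74, 6.54, 7.49 and 8.94 CPM against 228, 37.4, 683, 59.2 and 125 CPM, and libraries 1, 3 and 5 at 14 days were again the highest. The log2 fold changes were 5.35 ± 1.13 for Reg3b and 4.88 ± 0.79 for Reg1 (edgeR's quasi-likelihood test, Benjamini-Hochberg adjusted p = 0.00163 and 0.000258). The 250 bases before each RefSeq start (GRCm38.p6) are shown because both genes were higher, at chr6:78370635-78370884 and chr6:78425733-78425982, both on the plus strand. The RefSeq starts lie 228 bases (Reg3b) and 3272 bases (Reg1) from the GENCODE starts. Capitals mark the motifs found: TATAAA beginning 29 bases before the start of Reg3b and 30 before that of Reg1, and TGACTCA on the opposite strand at 117 bases in Reg1.
Reg3b: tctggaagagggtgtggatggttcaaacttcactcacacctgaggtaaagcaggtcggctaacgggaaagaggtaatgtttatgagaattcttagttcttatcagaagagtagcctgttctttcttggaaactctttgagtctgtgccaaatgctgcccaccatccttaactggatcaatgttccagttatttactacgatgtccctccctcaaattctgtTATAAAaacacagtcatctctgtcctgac
Reg1: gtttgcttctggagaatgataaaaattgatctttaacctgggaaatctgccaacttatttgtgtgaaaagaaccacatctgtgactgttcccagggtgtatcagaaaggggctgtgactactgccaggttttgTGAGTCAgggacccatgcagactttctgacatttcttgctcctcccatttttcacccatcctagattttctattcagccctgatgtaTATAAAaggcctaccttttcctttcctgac
The motifs searched on both strands were TATAAA of the TATA box, CCAAT of the CCAAT box, TGACTCA of AP-1, TGACGTCA of the cAMP response element, the interferon-stimulated response element and the heat shock element, and no matches shown overlap. The letters TATAAA were found in 12.4% of all 32851 mouse promoters of the same length, and TGACTCA in 4.46%.

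Hspa1b, an inducible Hsp70 chaperone, read 18.2, 11.9, 11.9 and 3.05 CPM at 2 days and 144, 723, 414, 605 and 449.6 CPM at 14 days. The groups did not overlap, with a log2 fold change of 5.37 ± 0.57 (edgeR's quasi-likelihood test, Benjamini-Hochberg adjusted p = 1.24e-05), against 2.65 in the knock-out. Hspa1a is a near-identical neighbour, so reads of the pair may have been divided between them. The promoter of Hspa1b is shown because heat shock genes have a known motif that can be looked for. The 250 bases before the start lie at chr17:34959239-34959488 (minus strand, GRCm38.p6). Capitals mark the only match to the letters searched, CCAAT on the opposite strand 67 bases before the start.
Hspa1b: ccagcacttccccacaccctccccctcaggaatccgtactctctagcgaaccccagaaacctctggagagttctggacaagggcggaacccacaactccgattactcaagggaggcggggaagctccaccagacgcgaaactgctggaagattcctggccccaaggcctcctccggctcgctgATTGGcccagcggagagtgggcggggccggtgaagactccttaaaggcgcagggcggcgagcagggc
CCAAT was found in 33.8% of all promoters. The heat shock element was searched only as a fixed pattern with every repeat unit required, which was found in 0.466%. This window has no match to that strict pattern, but partial or looser forms were not searched. Whether the promoter of Hspa1b holds a heat shock element was therefore not tested.

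The other largest higher genes were of several kinds. Ces1f, a carboxylesterase, read 0.265 to 3.44 CPM at 2 days and 21.2 to 96.5 CPM at 14 days. Ccl20, a chemokine that draws immune cells to the epithelium, read 0.397 to 1.57 CPM against 9.4 to 51.2 CPM. Acta1, skeletal muscle actin, read 6.81, 10.8, 6.99 and 12.2 CPM against 138, 694, 129, 103 and 97.3 CPM, and library 2 at 14 days was the highest. Lgals3, galectin 3, and Slc26a6, an apical anion exchanger, had log2 fold changes of 4.14 and 4.0. Nupr1, a stress-induced transcriptional regulator, and Stub1, a ubiquitin ligase that works with Hsp70, had 4.0 and 4.33. Tmem205, Tmem160 and Trappc6a, a subunit of a vesicle tethering complex, had 4.52, 4.06 and 4.46. Gsdmc2, a gasdermin, read 0.795 to 3.33 CPM against 13.1 to 49.5 CPM, a log2 fold change of 4.13, and of these 15 genes it alone did not pass in the same direction in the knock-out (-0.85). The difference of Gsdmc2 between genotypes did not pass (edgeR's quasi-likelihood test, Benjamini-Hochberg adjusted p = 0.289). All 15 passed the 2-fold test, but they were chosen for large log2 fold changes without overlap between groups. That test and the lack of overlap therefore add no support. All 15 remained called with the length and GC offset, and their median transcript length was 1446 bases.

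The 15 largest lower genes, chosen by the same rule, included regulators of transcription, translation and cell death. Nacc1 (ENSMUSG00000001910, chromosome 8, 84670483 to 84687862, minus strand, GRCm38), a BTB-domain transcriptional regulator, read 356, 196, 220.5 and 219 CPM at 2 days and 4.73, 6.95, 6.77, 7.07 and 7.76 CPM at 14 days. Its 5 libraries at 14 days lay close together, with a log2 fold change of -5.22 ± 0.24 (edgeR's quasi-likelihood test, Benjamini-Hochberg adjusted p = 5.88e-08). Max, the dimer partner of Myc, read 440.0, 381, 419 and 436 CPM against 13.5, 17.1, 39.3, 17.3 and 14.6 CPM, a log2 fold change of -4.37 ± 0.31. Bak1, a pore-forming protein of apoptosis, read 255, 82.2, 87.9 and 103 CPM against 2.01, 2.56, 9.29, 3.18 and 3.1 CPM, a log2 fold change of -5.07 ± 0.50. For Max and Bak1 the highest libraries were library 1 at 2 days and library 3 at 14 days, the ones that stand apart in mitochondrial share.

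Ddit4, a stress-induced inhibitor of mTORC1, read 187, 143, 122 and 98 CPM at 2 days and 4.46, 4.27, 8.66, 5.18 and 3.33 CPM at 14 days, a log2 fold change of -4.75 ± 0.29 (edgeR's quasi-likelihood test, Benjamini-Hochberg adjusted p = 4.34e-07). Its promoter, chr10:59951771-59952020 (minus strand, GRCm38.p6), is shown beside those of the higher genes. It holds CCAAT on the opposite strand at 170 and 137 bases before the start, in capitals, and no TATAAA. The window of Hspa1b, a higher gene, likewise holds CCAAT on the opposite strand and no TATAAA, whereas those of Reg3b and Reg1 hold TATAAA.
Ddit4: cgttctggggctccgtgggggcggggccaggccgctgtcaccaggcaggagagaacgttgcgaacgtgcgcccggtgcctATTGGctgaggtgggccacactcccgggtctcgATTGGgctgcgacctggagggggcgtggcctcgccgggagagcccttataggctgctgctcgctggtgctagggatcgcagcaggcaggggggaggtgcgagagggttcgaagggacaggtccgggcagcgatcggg
TATAAA was found in 3 of 13 promoters matched among the largest higher genes and in 0 of 11 among the largest lower genes, CCAAT in 5 and 3. No test was made of these counts.

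Eif4ebp2, a repressor of cap-dependent translation, and Atxn2l, an RNA-binding protein of stress granules, had log2 fold changes of -4.41 and -4.49. Atxn2l read 323 to 510.4 CPM at 2 days and 14.8 to 20.2 CPM at 14 days. Bcl9l, a coactivator of beta-catenin, had -4.08, and Prpf19, a splicing factor, -4.50. Atn1, a transcriptional corepressor, had -4.83. Ankrd52, Prrc2a, Midn, Smco4 and Tns4, a focal adhesion protein, had -4.06, -4.0, -3.97, -3.97 and -3.95. Aim2, a sensor of cytosolic DNA, had the lowest value, -5.37 ± 0.66, but read 94.9, 73.3, 4.59 and 74.8 CPM at 2 days, so library 3 at 2 days stood close to the 1.02 to 2.01 CPM of 14 days. Aim2 alone of these 15 did not pass in the same direction in the knock-out (-1.19). The median transcript length of the 15 was 4300 bases, and all passed with the length and GC offset.

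**Figure D4:**
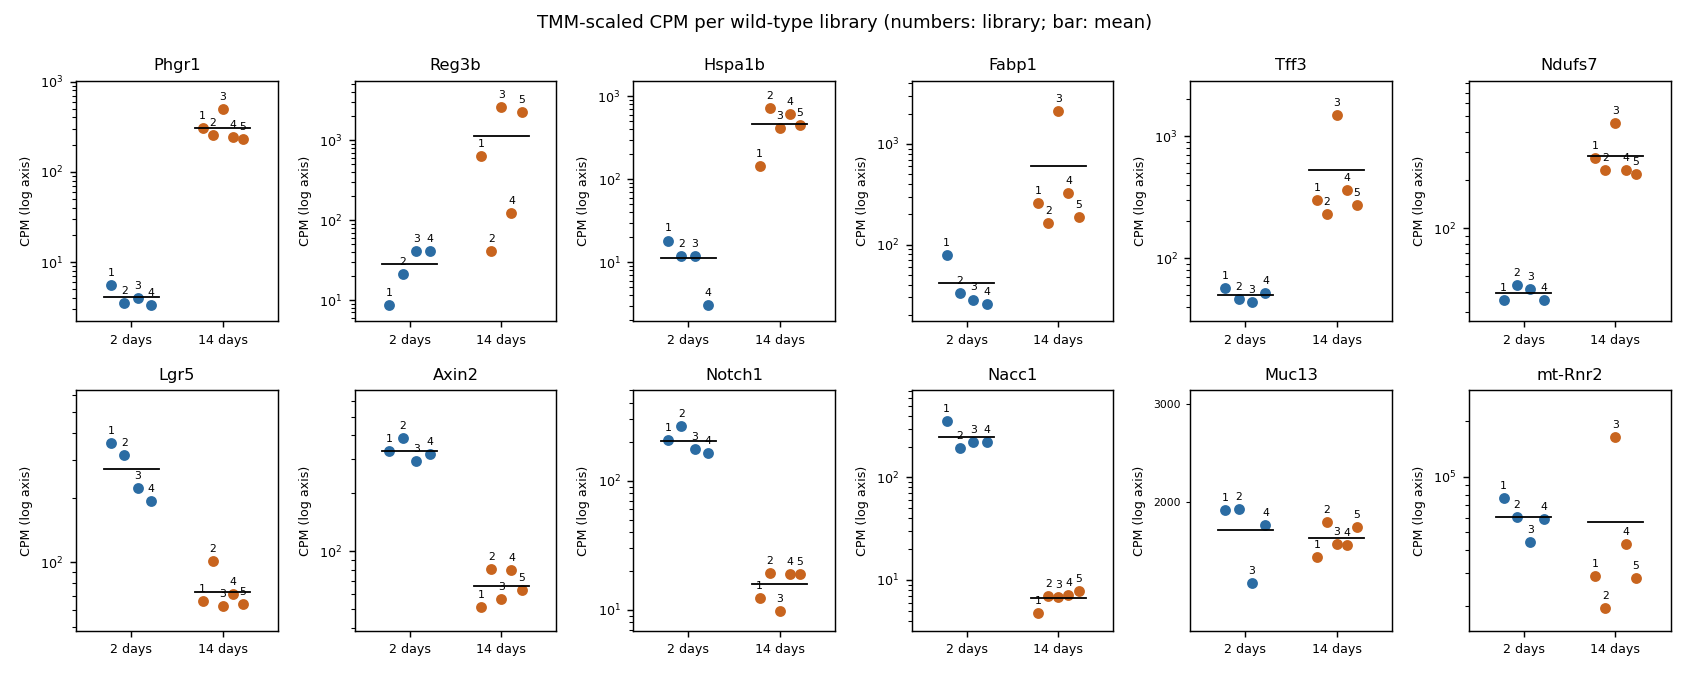
CPM on the TMM scale (log axes) of 12 genes in each wild-type library, with library numbers and the group mean as a bar. Phgr1, Reg3b, Hspa1b, Fabp1, Tff3 and Ndufs7 are higher in every library at 14 days, Lgr5, Axin2, Notch1 and Nacc1 are lower in every one, and Muc13 and mt-Rnr2 overlap.

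Stem cell markers were lower at 14 days, as a list and for most single members. Of 32 Lgr5-type stem cell markers, 23 were lower and 1 higher, with a median log2 fold change of -1.26, against 25.8% lower, 26.0% higher and a median of 0.06 over all genes. The list summed to 10412, 10539.7, 10516 and 10214 CPM at 2 days and 4824, 4702, 4193, 4279 and 3976 CPM at 14 days, with no overlap. With the length and GC offset the counts were the same and the median was -0.98. In bulk samples a lower value can come from fewer cells of a type or from less RNA per cell, and these cannot be told apart.

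Lgr5 itself (ENSMUSG00000020140, chromosome 10, 115450311 to 115587780, minus strand, GRCm38) read 359.8, 314, 222 and 192 CPM at 2 days and 66.1, 101, 63, 71.5 and 64.2 CPM at 14 days. The groups did not overlap, with a log2 fold change of -1.89 ± 0.22 (edgeR's quasi-likelihood test, Benjamini-Hochberg adjusted p = 2.23e-05). Olfm4 read 2649, 3685, 4056 and 4079.9 CPM against 1145, 613, 616, 806 and 588 CPM, a log2 fold change of -2.26 ± 0.26. Aqp4, a water channel, had -2.38, Tnfrsf19, a receptor of the TNF family, -1.86, and Igfbp4, an IGF-binding protein, -1.48. Not every marker was called: Ascl2, the transcription factor that maintains the stem cell program, had -0.62 and Smoc2, a matricellular protein, 0.35, with overlapping libraries for both. Among 6 tested markers of reserve or slow-cycling cells 2 were lower and 1 higher. Lrig1, a brake on EGF receptors, had -1.57, and Clu, the chaperone clusterin, had 2.26.

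Wnt target and feedback genes were lower with no exception among those called, 15 of 18, with a median of -1.69, and 17 of 18 with the length and GC offset. The list summed to 2859, 2557, 2185 and 2109.5 CPM at 2 days and 579.9, 831, 707, 716 and 670.1 CPM at 14 days. Axin2, a negative feedback gene of the pathway, read 330.1, 387, 295 and 318 CPM against 51.3, 81, 56.4, 79.7 and 63.3 CPM, a log2 fold change of -2.33 ± 0.18 (edgeR's quasi-likelihood test, Benjamini-Hochberg adjusted p = 1.44e-06). Ccnd1, cyclin D1, read 342, 279.9, 292 and 250.3 CPM against 20.1, 27, 65.8, 28.4 and 24.2 CPM, a log2 fold change of -3.14 ± 0.31. Znrf3, a ligase that removes Wnt receptors, had -1.62, and Ephb2, a receptor that positions cells along the crypt, -1.50. The 14 day values of Ccnd1 were highest in library 3.

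The Notch list was mixed: 6 of 16 were lower and 2 higher, against 2 higher and 4 lower with the offset and 4 and 3 with library totals, and the median of -0.32 became 0.24 with library totals in place of TMM. The receptors Notch1 and Notch2 were lower with no overlap between groups. Notch1 read 206, 265, 176 and 163 CPM at 2 days and 12.5, 19.3, 9.74, 19.1 and 19 CPM at 14 days, and Notch2 98.6, 80.2, 80.7 and 89.2 CPM against 10.4, 16.5, 7.67, 13.7 and 14.9 CPM. The log2 fold changes were -3.67 ± 0.24 and -2.78 ± 0.22, and both genes have long transcripts. With the length and GC offset they were -2.90 and -1.95. Hes6, a bHLH factor of secretory differentiation, went the other way, 1.86.

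Mitosis genes were more often lower than higher on the TMM scale but not with library totals, and replication genes divided. Of 36 G2/M and mitosis genes 19 were lower and 2 higher, with a median of -0.69. The counts were 6 higher and 16 lower with the offset, 4 and 21 without both libraries that stand apart and 10 and 8 with library totals, where the median was -0.09. The list summed to 6145 to 9331 CPM at 2 days and 3884 to 5395 CPM at 14 days, with no overlap. Mki67, the proliferation antigen Ki-67, read 2849, 1610.0, 1564 and 2150.1 CPM against 652, 744, 768, 615 and 666 CPM, a log2 fold change of -1.57 ± 0.22 (edgeR's quasi-likelihood test, Benjamini-Hochberg adjusted p = 9.11e-05). Kif11, a spindle motor, Anln, a cytokinesis protein, and Tpx2, a spindle assembly factor, had -1.82, -1.67 and -1.19. Of 37 S phase genes 13 were lower and 7 higher, and the median of -0.33 became 0.07 with the length and GC offset. The S phase counts were 9 higher and 11 lower with the offset, 10 and 15 without both libraries that stand apart and 14 and 4 with library totals. Dnmt1, the maintenance DNA methyltransferase, had -1.56. Replication-dependent histone genes, which are short and have near-identical copies, had 21 of 43 higher and 3 lower. The histone counts were 7 higher and 12 lower with the offset and 21 and 7 without both libraries that stand apart, and the median of 1.55 became 0.22 and 0.90.

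Markers of differentiated lineages were more often called higher than lower at 14 days, apart from Paneth cell markers with the length and GC offset. Of 38 enterocyte markers 20 were higher and 4 lower, with a median of 1.07. With the offset 16 were higher and 4 lower. The list summed to 4719, 4279.7, 3832 and 4088 CPM at 2 days and 6548, 3467, 16366, 4855 and 8393 CPM at 14 days, so library 2 at 14 days lay below every library at 2 days and library 3 lay far above the rest. Fabp1 read 78.5, 33.1, 28.5 and 25.8 CPM at 2 days and 256, 163, 2113, 325 and 189 CPM at 14 days. Library 3 at 14 days held the most by far, and the other 4 still lay above every library at 2 days, with a log2 fold change of 3.87 ± 0.81 (edgeR's quasi-likelihood test, Benjamini-Hochberg adjusted p = 0.00161). Creb3l3, a transcription factor of lipid metabolism, had 3.98, Prap1, a proline-rich secreted protein, 3.32, and Alpi, intestinal alkaline phosphatase, 1.53. Apoa1, an apolipoprotein of the particles that carry absorbed fat, read 55, 84.4, 53.1 and 87.1 CPM against 176, 31.5, 969.7, 164 and 60.7 CPM, so library 2 at 14 days lay below all 4 libraries at 2 days although the gene passed the test (2.0 ± 0.79). Without library 3 at 14 days the log2 fold change of Apoa1 was 0.64, and the call was lost there, with the offset, and without any one of 6 other libraries. Anpep, an aminopeptidase of the brush border, went down, from 630.0, 717, 318 and 443 CPM to 81.3, 43.9, 109, 71.8 and 52.2 CPM (-2.88 ± 0.30). In the knock-out the same list had 8 members higher and 9 lower, with a median of -0.49. Without library 1 at 2 days and library 3 at 14 days the wild-type counts were 18 higher and 4 lower, with a median of 0.75. The list's difference between genotypes was not tested, and no single gene passed for it.

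Goblet cell markers were higher for 12 of 21 members and lower for 2, with a median of 1.23, 0.55 with the length and GC offset, and 1.11 without library 1 at 2 days and library 3 at 14 days. The goblet counts were 8 higher and 1 lower with the offset. Tff3 read 56.9, 45.9, 43.3 and 51.7 CPM against 298, 229, 1481, 359.9 and 274 CPM, a log2 fold change of 3.42 ± 0.55. Spink4, Zg16, a lectin of mucus granules, and Clca1, a mucus-processing protein, had 3.85, 4.0 and 1.65. Fcgbp, a large mucus protein, had 1.80 and 2.56 with the offset, and Agr2, a disulphide isomerase needed for mucin folding, had 1.88 and 0.39. Agr2 no longer passed with the offset. Muc2, the gel-forming mucin itself, was not called, at 276, 367, 298 and 289.8 CPM against 284, 153, 373, 353 and 324 CPM (-0.05 ± 0.24).

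Paneth cell markers depended on the libraries and on the length correction. Of 17 tested, 7 were higher and 1 lower, with a median of 1.29. Without library 1 at 2 days and library 3 at 14 days 3 were higher and 1 lower, and with the length and GC offset 1 were higher and 3 lower. The median was 0.24 without those libraries and -0.42 with the offset. The list summed to 1790.2, 1679, 4857 and 323 CPM at 2 days and 2499.9, 4785, 20961, 3976 and 2942 CPM at 14 days, so library 3 at 14 days held the most and library 4 at 2 days the least. Lyz1, lysozyme, read 239.6, 298, 1735 and 102 CPM against 238, 406, 928, 376 and 144 CPM and was not called. Mmp7, the protease that activates defensins, and Ang4, an antimicrobial ribonuclease, also overlapped (1.0 and 1.15, not called). Defa24 was called at 3.15 ± 0.83 and no longer passed with the offset (0.94).

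Enteroendocrine markers were higher for 5 of 22 and lower for 1, and tuft cell markers higher for 6 of 18 and lower for 1, against 26.0% and 25.8% of all genes. The enteroendocrine share called higher thus lay below that of all genes. Neither list was matched for level. In the lowest of 10 bins of nuclear protein-coding genes by mean level, 16.6% were higher and 4.66% lower, so few lower calls may reflect level. Without both libraries that stand apart 11 enteroendocrine markers were higher and 2 lower, and with library totals 9 and 0. Tuft cell counts were 4 higher and 1 lower with the offset, 5 and 2 without both libraries that stand apart and 10 and 1 with library totals. Chga, a granin of hormone granules, read 2.52, 6.84, 7.06 and 5.76 CPM against 12.2, 14.3, 38.9, 11.8 and 22.8 CPM. The hormone secretin, Sct, read at most 1.02 CPM at 2 days and 8.49 to 38.3 CPM at 14 days. Cpe, the carboxypeptidase that matures hormones, had 2.47. Dclk1, the kinase that marks tuft cells, read 0.487 to 9.6 CPM against 2.64 to 26.4 CPM and was not called. Cd24a, a surface glycoprotein of crypt cells on the tuft list, was lower (-1.40).

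Epithelial identity genes had 8 of 19 higher and 6 lower, with a median of 0.00, and 7 higher and 5 lower with the offset and 10 and 1 with library totals. Krt8, a keratin of simple epithelia, read 240.2, 324, 236 and 232 CPM against 1209, 1084, 1165, 805 and 830.3 CPM (1.98 ± 0.21). Cdh1, E-cadherin, went the other way, from 981, 1133, 1136 and 1146 CPM to 505, 647, 729, 631 and 598 CPM (-0.82 ± 0.17), a call lost with the length and GC offset and with library totals in place of TMM.

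**Figure D5:**
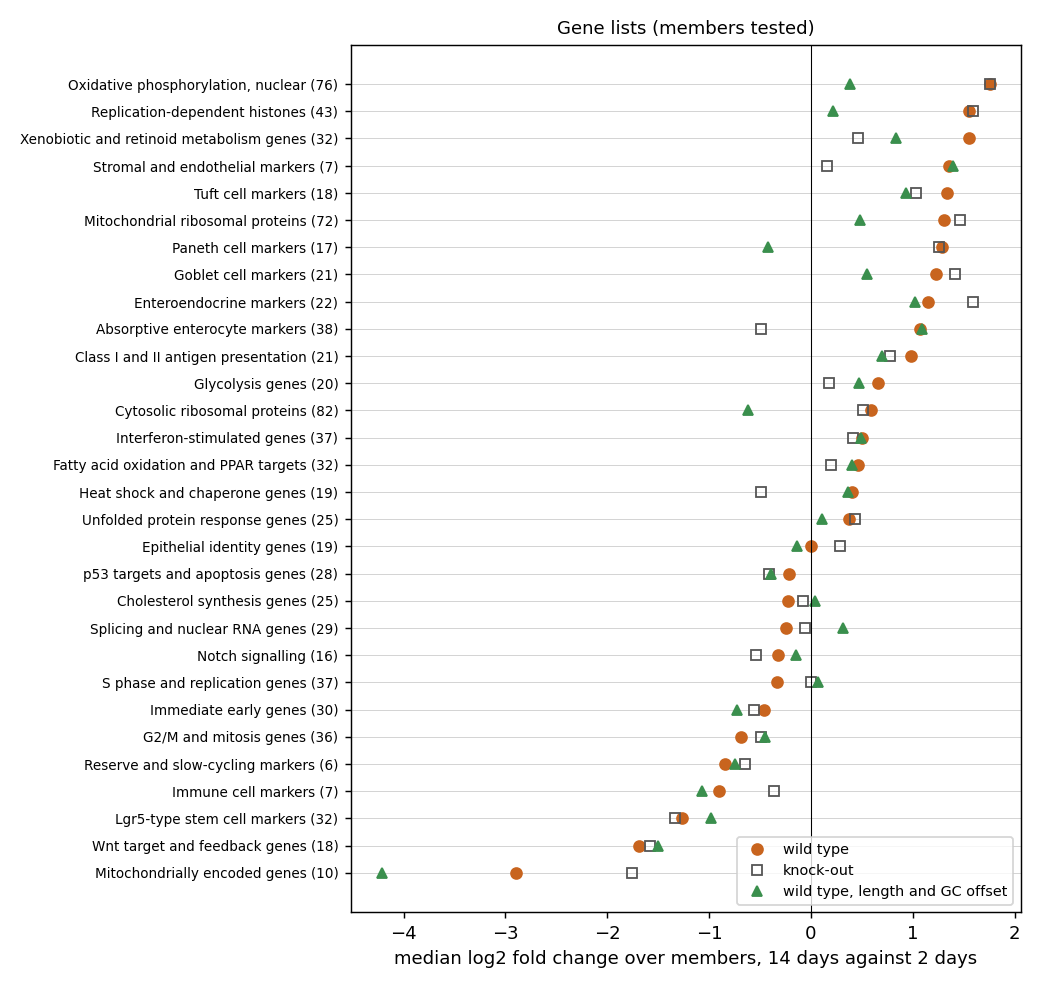
Median log2 fold change over the tested members of each gene list, 14 days against 2 days, with the number of members tested in brackets. Filled circles are the wild type, open squares the knock-out, and triangles the wild type with the length and GC offset. Wnt targets and stem cell markers lie left of 0 on all 3 measures, nuclear oxidative phosphorylation genes lie right of 0, and cytosolic ribosomal proteins and Paneth markers change side with the offset.

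Nuclear genes of the mitochondrion and the genes of its own genome went opposite ways. Of 76 nuclear subunits of oxidative phosphorylation 67 were higher and 1 lower, with a median of 1.76. Of 72 mitochondrial ribosomal proteins 52 were higher and 2 lower, with a median of 1.31. Both families are encoded by short transcripts, and with the length and GC offset 35 and 35 members were higher, 7 and 7 lower, with medians of 0.39 and 0.48. Ndufs7, a complex I subunit, read 35.7, 44.5, 41.6 and 35.9 CPM against 273, 231, 456, 229.7 and 218 CPM, a log2 fold change of 2.84 ± 0.25, or 1.34 with the offset. Cox5a of complex IV and Uqcrc1 of complex III had 2.94 and 2.12, or 2.2 and 1.89 with the offset. Mrps17 and Mrpl28, of the small and large mitochondrial ribosomal subunits, had 2.26 and 2.66.

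Mitochondrially encoded genes were lower for 8 of 10 tested and higher for 0. The list holds 15: mt-Co2, mt-Co3, mt-Atp6, mt-Atp8 and mt-Nd4l had 0 or 1 count in every library, so the shares below cover the other messenger RNA genes only. Mitochondrial messenger RNA genes took 37.5, 21.4, 17.8 and 19.5% of all counts in libraries 1 to 4 at 2 days. At 14 days they took 4.35, 2.42, 6.57, 4.35 and 3%. The groups did not overlap (two-sided exact permutation p = 0.0159). mt-Co1, a core subunit of complex IV, had a log2 fold change of -3.56 ± 0.47, and mt-Cytb, cytochrome b of complex III, -3.12 ± 0.61 (edgeR's quasi-likelihood test, Benjamini-Hochberg adjusted p = 5.97e-05 and 0.00104). The mitochondrial ribosomal RNAs did not share this gap: they took 11.5, 10.3, 8.28 and 10.8% of counts at 2 days and 5.24, 3.78, 19.7, 7.27 and 4.9% at 14 days, which overlapped (two-sided exact permutation p = 0.619). mt-Rnr2, the large ribosomal RNA, was not called (-0.08 ± 0.59), and mt-Rnr1, the small one, was lower with overlapping libraries (-1.78 ± 0.60), a call lost in DESeq2 and without library 1 at 2 days or without library 1, 2, 4 or 5 at 14 days. Library 3 at 14 days held the highest ribosomal RNA share of the 9. Without it the ribosomal RNA share was lower at 14 days by 4.92 percentage points (two-sided exact permutation p = 0.0286), against a difference of 2.03 points with it.

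Cytosolic ribosomal proteins, short and abundant, changed sign with the correction. Of 82, 29 were higher and 5 lower, with a median of 0.59. With the length and GC offset 5 were higher and 36 lower, with a median of -0.61. Without both libraries that stand apart 34 were higher and 23 lower, with a median of 0.24. The summed list stood at 9941, 9604, 10612 and 8898 CPM at 2 days and 8581, 8339.6, 24279, 8805 and 7989 CPM at 14 days, so library 3 at 14 days alone lay above the 2 day range and the other 4 lay below it. Rpl22l1, a paralogue of Rpl22, was higher (2.30), as was Fau, which encodes a ubiquitin-like fusion with a small subunit protein (2.18, not called with the offset). Ribosomal proteins have many processed pseudogenes, to which reads may have been assigned.

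Stress genes moved in both directions, with shares near those of all genes (26.0% higher and 25.8% lower) for heat shock and unfolded protein response genes. Of 30 immediate early genes, which respond within minutes to many stimuli, 11 were higher and 12 lower. The counts were 8 higher and 15 lower with the offset and 12 and 8 with library totals, which lean opposite ways. Egr1 read 8355, 5209.8, 3771 and 3908 CPM at 2 days and 826, 1204, 999, 874 and 864 CPM at 14 days (-2.48 ± 0.28). Fos, the AP-1 subunit, went the other way, 986, 1178, 1069 and 755 CPM against 2161, 2349, 1639, 1583 and 1545 CPM (0.90 ± 0.22), and no longer passed with the length and GC offset. Of 19 heat shock and chaperone genes 7 were higher and 4 lower. The counts were 9 higher and 4 lower with the offset, 9 and 6 without both libraries that stand apart and 11 and 1 with library totals. Beside Hspa1b, Dnaja1, an Hsp40 cochaperone, was higher (1.35), while Hspa4, an Hsp110 family member, was lower, 1367, 697, 753 and 863 CPM against 249, 250.1, 288, 237 and 207 CPM (-1.90 ± 0.22). Of 25 unfolded protein response genes 8 were higher and 5 lower. The counts were 10 higher and 6 lower with the offset, 13 and 6 without both libraries that stand apart and 14 and 1 with library totals. Ddit3, the factor CHOP, read 33.6, 32.7, 36.1 and 24.6 CPM against 166, 248, 335, 186 and 179 CPM (2.81 ± 0.24), while Herpud1, a membrane protein of endoplasmic reticulum degradation, and Pdia6, a disulphide isomerase, had 2.76 and 1.27.

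Of 28 p53 target and apoptosis genes 10 were lower and 5 higher, with a median of -0.21, or 0.36 with library totals, where 6 were higher and 7 lower. Trp53 itself, the tumour suppressor p53, read 321, 341, 354 and 339.5 CPM against 108, 102, 90.5, 99.2 and 82.7 CPM. Both groups were tight and far apart (-1.81 ± 0.14, edgeR's quasi-likelihood test, Benjamini-Hochberg adjusted p = 1.47e-06). Splicing and nuclear RNA genes had 5 of 29 higher and 8 lower, close to the 26.0% and 25.8% of all genes for the lower calls and below it for the higher. The counts were 11 higher and 5 lower with the offset, 8 and 8 without both libraries that stand apart and 12 and 3 with library totals, and the median changed side with the offset, from -0.24 to 0.32.

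Of 21 genes of antigen presentation 11 were higher and 0 lower, against 26.0% and 25.8% of all genes, with a median of 0.99. With the offset 8 were higher and 1 lower, the latter B2m, the light chain of class I molecules (-0.44, not called, or -1.94 with the offset). Psmb10, a subunit of the immunoproteasome, read 20.2, 20.6, 32.8 and 21.1 CPM against 165, 136, 359.6, 165 and 152 CPM (3.05 ± 0.31). H2-D1, a class I molecule with close relatives, had 1.47. Interferon-stimulated genes had 11 of 37 higher and 3 lower. The higher share is close to the 26.0% of all genes, and the counts were 10 higher and 4 lower with the offset, 15 and 3 without both libraries that stand apart and 18 and 1 with library totals. Irf1, an interferon-induced transcription factor, had 1.84, and Bst2, tetherin, 2.46, which no longer passed with the offset.

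Metabolic lists differed among themselves. Xenobiotic and retinoid metabolism genes were higher for 18 of 32 and lower for 0, with a median of 1.55 (0.84 with the offset, where 11 were higher and 2 lower). Adh6a, an alcohol dehydrogenase, read 9.2, 10.8, 16.4 and 15.3 CPM against 179.7, 148, 258, 142 and 122 CPM (3.72 ± 0.28), and Gstp1, a glutathione transferase, had 3.32. Fatty acid oxidation genes had 14 of 32 higher and 4 lower, with the lipid droplet coat protein Plin2 at 1.47 and the acyl-CoA dehydrogenase Acadl at 1.30. The fatty acid oxidation counts were 12 higher and 6 lower with the offset and 19 and 1 with library totals. Glycolysis genes had 9 of 20 higher and 2 lower, and 7 higher and 1 lower with the offset. Cholesterol synthesis genes were divided, 7 higher and 9 lower of 25, and 6 higher and 5 lower with the offset and 7 and 3 with library totals. Insig1, which holds back the activation of the pathway, was lower (-2.70). In the knock-out 8 xenobiotic and retinoid genes were higher and 2 lower, with a median of 0.47. The knock-out counts were 10 and 8 for fatty acid oxidation, 4 and 2 for glycolysis and 6 and 10 for cholesterol synthesis. Their medians there were 0.19, 0.17 and -0.07, against 0.46, 0.66 and -0.23 in the wild type. Differences of these lists between genotypes were not tested.

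Some genes held one level. For 324 genes (2.30% of those tested) the whole 95% interval of the log2 fold change lay between -0.5 and 0.5. The 4 highest of these per length were Muc13, Psma6, a proteasome subunit, Rsl1d1, a nucleolar protein, and Canx, the chaperone calnexin. Muc13 read 1942, 1950.3, 1438 and 1826 CPM at 2 days and 1600.4, 1849, 1688, 1679.8 and 1809 CPM at 14 days (-0.05 ± 0.19), and Psma6, Rsl1d1 and Canx had 0.01, -0.06 and 0.03. The interval is on the TMM scale: with library totals in its place 85 genes met it, with the length and GC offset 686, without both libraries that stand apart 831, and with single libraries left out 154 to 477. With the length and GC offset Psma6 and Rsl1d1 passed as lower (-1.23 and -0.62), while Muc13 and Canx did not pass (0.02 and 0.36).

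The genes named in the title of the series were measured too. Dlg1 read 59, 77.7, 69.1 and 85.3 CPM in the wild type at 2 days and 57.6, 59.7, 56.9, 78.4 and 77.2 CPM at 14 days, which overlapped (-0.14 ± 0.17). Arhgap31, an activator of GTP hydrolysis by Cdc42 and Rac1, read 7.26, 3.39, 3.18 and 2.05 CPM against 6.91, 11.9, 11.3, 6.05 and 10.1 CPM (1.21 ± 0.41), which passed the test although library 1 at 2 days lay within the 14 day range. The call was lost without library 2, 3 or 4 at 2 days or library 2 or 5 at 14 days (log2 fold changes from 0.98 to 1.19).

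Several non-coding classes were less often called lower at 14 days than protein-coding genes, a difference that was not tested and not matched for level. Of 398 antisense genes tested 27.6% were higher and 6.28% lower, of 283 lincRNA genes 23.0% and 7.77%, and of 261 processed pseudogenes 45.6% and 6.90%, against 24.8% and 28.5% of 12236 protein-coding genes. In the lowest of 10 bins of nuclear protein-coding genes by mean level, 16.6% were higher and 4.66% lower, so the shares may reflect level and not class. As a share of counts, lincRNA genes took 0.414% to 1.09% at 2 days and 1.31% to 1.85% at 14 days. Snord118, the U8 small nucleolar RNA, read 0.141 to 0.424 CPM against 10.6 to 87.8 CPM. Gm11545, a predicted gene, read 70.6 to 77.8 CPM at 2 days and 0.902 to 10.4 CPM at 14 days. Without a stated strand setting, reads of an antisense gene cannot be told apart from those of its partner.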

How the data were processed

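The authors deposited raw read counts, whole numbers with 1 row per Ensembl gene, as separate tables for the 2 times. The submitters' processing notes name bcl2fastq 2.20.0.422, STAR 2.4.2a and GRCm38. Not given in the sources used here: the annotation, the counter, whether strand was used, and how multiply mapping reads were handled. Library numbers follow the order of columns in each table, since their names hold no replicate number. Columns that begin with Dmin at 2 days were read as knock-out, which matters only for the knock-out values.

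Symbols, lengths and GC content were taken from GENCODE M21 (GRCm38), where 42548 of 43432 identifiers had a symbol. In it Lgals2, Ccnd1, Prap1, Dnaja1, Ddit3, Pdia6, Bak1, Tmem205, Stub1, Bcl9l, Ankrd52 and Lrig1 share exon bases with another named gene, and several others with a predicted gene, so their reads may be shared. Low counts were removed with filterByExpr (minimum count 10), and libraries were scaled by TMM and tested with edgeR 4.0.16 (R 4.3.3, quasi-likelihood), 14 days against 2 days. P-values were adjusted by Benjamini-Hochberg over all genes tested, called under 0.05, with a second test against a 2-fold change. Standard errors follow from the log2 fold change and the test statistic. CPM values are counts relative to the TMM-scaled total, and RPKM divides them by the union of exon lengths. Library measures were compared by exact two-sided permutation tests. The knock-out contrast and the interaction came from 1 fit of all 18 libraries. On simulated data over the same 14078 genes, 100 genes were changed 2-fold and 100 were changed 4-fold. The wild-type comparison recovered 20% of the 2-fold and 60% of the 4-fold changes, with 3 false calls among 13878 unchanged genes. In the real comparison 7293 genes passed, a far larger share. The adjusted threshold therefore was not the same, and these rates do not carry over to it. Libraries held 12.6 to 40.5 M counts, so a value under about 1 CPM rests on few reads and has a wide counting error. Reads carry no molecular identifiers, so amplified copies cannot be told apart from molecules.

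The members, lists and tests were chosen with earlier results of these data known. Named genes were the 20 highest per length, per direction the 15 largest log2 fold changes among called protein-coding genes of mean log2 CPM of at least 4 without overlap between groups and without predicted models, the highest with an interval inside ±0.5, the members of smallest p of each list, cell type markers, Dlg1 and Arhgap31, and non-coding genes of large fold change. Promoter sequences came from RefSeq (GRCm38.p6), with the 250 bases before each start searched. Alternatives were other scalings, filters and tools (DESeq2 1.42.0, limma 3.58.1), thinning, the length and GC offset and each library left out.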

Additional observations from a re-analysis of the deposited data

Results flagged for a closer look

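A library was listed where the gap between it and the nearest of its group exceeded Dixon's 95% limit, in groups of 4 or 5. Of 258 group values tested, 56 did so. The limit is passed by about 1 in 20 where values are independent and normally distributed. Here they were not transformed and came from the same libraries, so that rate does not apply and 56 is not a measured excess. Library 3 at 14 days held 32 of them and library 1 at 2 days 17. All values are CPM unless a unit is given, and no explanation was tested.

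Library 3 at 14 days stood alone in markers of differentiated cells, in every case as the highest. It read 2113 for Fabp1, 739 for Prap1, 969.7 for Apoa1, 1481 for Tff3, 1933 for Spink4, 301.0 for Clca1 and 38.3 for Sct. Among Paneth cell genes it read 219 for Mmp7, 746 for Ang4 and 9912 for Defa24. It was also the highest for Cd24a (375), Ccnd1 (65.8), Lgals2 (3573), Phgr1 (494), Tmem205 (109.5), Lgals3 (179) and Tmem160 (73.4). The same held for Ndufs7 (456), Rpl22l1 (72.3), Fau (23.6), Psmb10 (359.6) and Snord118 (87.8). Among genes lower at 14 days it had the highest value of its group for Bak1 (9.29), Prpf19 (17.0), Max (39.3), Midn (26.8) and Smco4 (11.4). Its mitochondrial genes stood apart too, with 20591 for mt-Cytb, 59554 for mt-Rnr1 and 164247 for mt-Rnr2. Mitochondrial genes in all took 26.3% of its counts and mitochondrial ribosomal RNA 19.7%.

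Library 1 at 2 days was the deepest, at 40.5 M counts, and had the fewest genes with a count, 16073, or 14824 after thinning. Satellite-like models took 0.000326% of its counts, the most at that time. It was the highest at 2 days for Fabp1 (78.5), Cd24a (1004), mt-Cytb (199381), Rpl22l1 (13.9), Bak1 (255), Nacc1 (356), Prpf19 (395), Ankrd52 (139), Smco4 (125), Lypd8 (4750.5), Epcam (2327) and Itgam (68.0). It was the lowest for Cdh1 (981).

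The other libraries stood apart for few genes. At 14 days library 2 was the highest for Lgr5 (101) and Acta1 (694), and library 1 was the lowest for Ephb2 (43.0). At 2 days library 2 was the highest for Krt8 (324) and Clca1 (67.9), and library 3 was the highest for Lyz1 (1735) and Psmb10 (32.8).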

How the results depend on the processing

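Time and table are the same split here, and no setting separates them. The count of genes called lower moved to 1595 with library totals in place of TMM. The count past a 2-fold change moved to 1800 with the length and GC offset and to 5243 when an adjusted p with an estimated fold was used in its place. The count inside the narrow interval was 85 with library totals, 686 with the offset, 831 without both libraries that stand apart, and 154 to 477 with single libraries left out. No paired analysis was possible because the columns carry no replicate number from the labels.

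Of 117 genes followed through the alternatives, 102 were called. Of these, 91 kept call and direction under every alternative in which they were tested, and 98 with each single library left out. Many of these genes were named for a large difference or a small p, so these counts do not stand for all genes called. Lgals2 alone of the called genes changed sign (-0.62 with the offset). The other genes that changed sign had no call on the TMM scale. With the length and GC offset Mmp7 was -0.42, Ang4 -0.79, Muc13 0.022, Psma6 -1.23, Epcam -0.22 and Dlg1 0.50. With library totals Ascl2 was 0.083, mt-Rnr2 0.32, Muc13 0.52, Rsl1d1 0.47, Dlg1 0.40 and Muc2 0.46. With upper-quartile factors mt-Rnr2 was 0.026, Muc13 0.088, Rsl1d1 0.072 and Muc2 0.084. With nuclear protein-coding genes only Muc13 was 0.0091 and Muc2 0.012, and with a minimum count of 50 Muc2 was 0.0027. With limma voom Lyz1 was 0.038 and Psma6 -0.013, and in 1 fit of all 18 libraries Psma6 was -0.0058. Without both libraries that stand apart Mmp7 was -0.14 and Canx -0.12. With single libraries left out the lowest and highest values were -1.02 and 0.95 for Lyz1, -0.999 and 0.15 for mt-Rnr2, -0.11 and 0.12 for Psma6, -0.13 and 0.0018 for Rsl1d1, -0.097 and 0.10 for Canx and -0.14 and 0.13 for Muc2.

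List medians changed sign as follows. With library totals they were 0.32 for cholesterol synthesis, 0.026 for immediate early genes, 0.24 for Notch signalling, 0.24 for S phase genes, 0.41 for splicing genes and 0.36 for p53 targets. With the offset they were 0.042 for cholesterol synthesis, -0.61 for cytosolic ribosomal proteins, -0.14 for epithelial identity, -0.42 for Paneth markers, 0.075 for S phase genes and 0.32 for splicing genes. The splicing median was 0.011 without both libraries that stand apart. Epithelial identity stood at -0.0088 in 1 fit of all 18 libraries and between -0.11 and 0.13 with single libraries left out.

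The difference in total counts, 14 days minus 2 days, ran from -11.4 to -2.83 M with single libraries left out, that in mitochondrial share from -25.4 to -17.0 percentage points, in mitochondrial ribosomal RNA from -4.92 to -0.934, in pseudogenes from 0.0319 to 0.0485, and in the 100 most abundant genes from -18.9 to -11.5. Over nuclear counts alone the difference in pseudogenes was -0.0634 and in the 100 most abundant genes 2.63. The cause of these shifts was not tested.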
